A study of Mus musculus with 15 samples.

Results

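Cultured 4T1 cells were set against distal lung epithelium, a tumour line in culture against cells of the organ that it colonises. The line 4T1 derives from a mammary carcinoma of the BALB/c strain. The 3 libraries of cultured 4T1 cells (replicates A, B and C) came from cells grown in DMEM with 10% FBS and 1% P/S. The 3 libraries of distal epithelium, titled EpCAM_distal_lung (replicates R1, B and C) and given the treatment label control, came from lung epithelial cells of mice that had received 800000 labelling 4T1 cells into the tail vein 7 days earlier. Their deposited files are named for AT2 cells, but their labels say lung epithelial cells and name no AT2 sort, so the name here follows the labels. They were taken from lung away from the labelled niche, with 5 lungs pooled per replicate. All 6 libraries of these groups, of 15 in the series, and all 54838 genes in the files were used, and 16738 genes passed the filter on low counts and were tested. Nothing in the labels says that the 4T1 replicates were separate cultures, so p-values speak only of the variation among these libraries, and it may be technical. A line and a tissue also differ in culture, dissociation and sorting, and these cannot be told apart from lineage.

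Distal lung epithelium is built mainly of flat alveolar type 1 (AT1) cells, across which gas diffuses, and cuboidal alveolar type 2 (AT2) cells. AT2 cells make surfactant, a mixture of phospholipid and surfactant proteins that is stored in lamellar bodies and lowers surface tension. Their identity depends on the homeobox factor Nkx2-1 together with forkhead, GATA and C/EBP factors. The mammary gland has luminal epithelium, which lines ducts and secretes milk, and basal myoepithelium, which contracts around it, and Gata3 and Elf5 are known regulators of its luminal cells. Carcinoma lines that divide quickly draw on glycolysis and on the synthesis of serine, nucleotides and ribosomes.

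The files held 21167475, 30421705 and 22998698 counts for cultured 4T1 cells and 19241055, 16090224 and 15907316 counts for distal epithelium. Levels are CPM, counts scaled to a fixed library size with TMM factors, given in the order of the replicates above or as mean ± SD over 3 libraries, and those factors were 1.05 to 1.11 in 4T1 libraries and 0.895 to 0.953 in distal libraries. Genes named as highest in a group are ranked by TPM, which is scaled for transcript length. Sums over lists, and the part of a gene in a sum or in all counts, use CPM or counts, which are not. Fold changes are 4T1 over distal on the log2 scale. P-values are from edgeR's quasi-likelihood F-test and Benjamini-Hochberg adjusted over all genes tested. The standard error (SE) was derived from that test, as the absolute log2 fold change divided by the square root of F. For genes with few counts in a group it can understate the counting error and is no measure of precision. Where 4T1 libraries held 0 counts, the fold is a lower bound against 3 counts over the group, and where they held 1 to 3 counts the ratio of scaled counts is given. Genes with at least 1 count numbered 19328 to 19920 in 4T1 libraries and 23388 to 23624 in distal libraries.

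The distal libraries carried the markers of lung epithelium and those of other lung cells. AT2 genes led, and AT1, club and ciliated cell genes were all present, as given below. All 12 fibroblast and mural markers were lower in 4T1 cells. Over all genes tested 47.8% were lower and 34.7% higher, and the counts of markers here stand beside those shares. The 12 markers summed to 6.70 to 11.4 CPM in 4T1 libraries and 5557 to 6750.1 CPM in distal libraries. Col1a1 alone measured 1179 ± 129 CPM in distal epithelium. The pan-leukocyte markers summed to 47.5 to 59.3 CPM in 4T1 libraries and 362 to 610.4 CPM in distal libraries, with 8 of 9 lower, and most of the 4T1 level was Arhgdib, the member not called (53.6 ± 6.20 CPM in 4T1 cells and 62.4 ± 17.4 CPM in distal epithelium). Ptprc (CD45) measured 0.0860 ± 0.0398 CPM in 4T1 cells and 76.2 ± 23.4 CPM in distal epithelium, and Cd53, Laptm5 and Tyrobp were at 0 counts in 4T1 cells. Igha and Jchain of plasma cells had 0 counts in 4T1 cells and 1236 ± 631 CPM and 776 ± 308 CPM in distal epithelium. Markers of several kinds of leukocyte were thus present in distal libraries and at or near 0 in 4T1 cells. The 14 macrophage markers listed, 12 of them tested, summed to 10.3 to 12.5 CPM in 4T1 libraries and 352 to 498 CPM in distal libraries and the 8 neutrophil markers, 5 of them tested, to 0.342 to 1.09 CPM in 4T1 libraries and 43.4 to 105 CPM in distal libraries. The 12 lymphocyte markers, all tested, summed to 0.0628 to 0.0854 CPM in 4T1 libraries and 79.95 to 134 CPM in distal libraries and the 13 endothelial markers, 12 of them tested, to 20.5 to 25.5 CPM in 4T1 libraries and 167 to 232 CPM in distal libraries. C1qb, Cd3e and Kdr, which define macrophages, T cells and endothelium, were at 0 counts in 4T1 cells, and the remaining endothelial level there was Egfl7 (21.7 ± 2.41 CPM). Erythroid and platelet genes were low, at 2.02 to 2.22 CPM in 4T1 libraries and 11.99 to 18.9 CPM in distal libraries, and of 6 mesothelial genes Msln (4.27 ± 0.16) and Bnc1 (3.12 ± 0.37) were higher and 4 lower. A lower level of a stromal or immune gene in 4T1 cells compares 4T1 cells with a mixture, and in bulk RNA fewer cells of a type cannot be told apart from less RNA per cell.

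**Figure D1:**
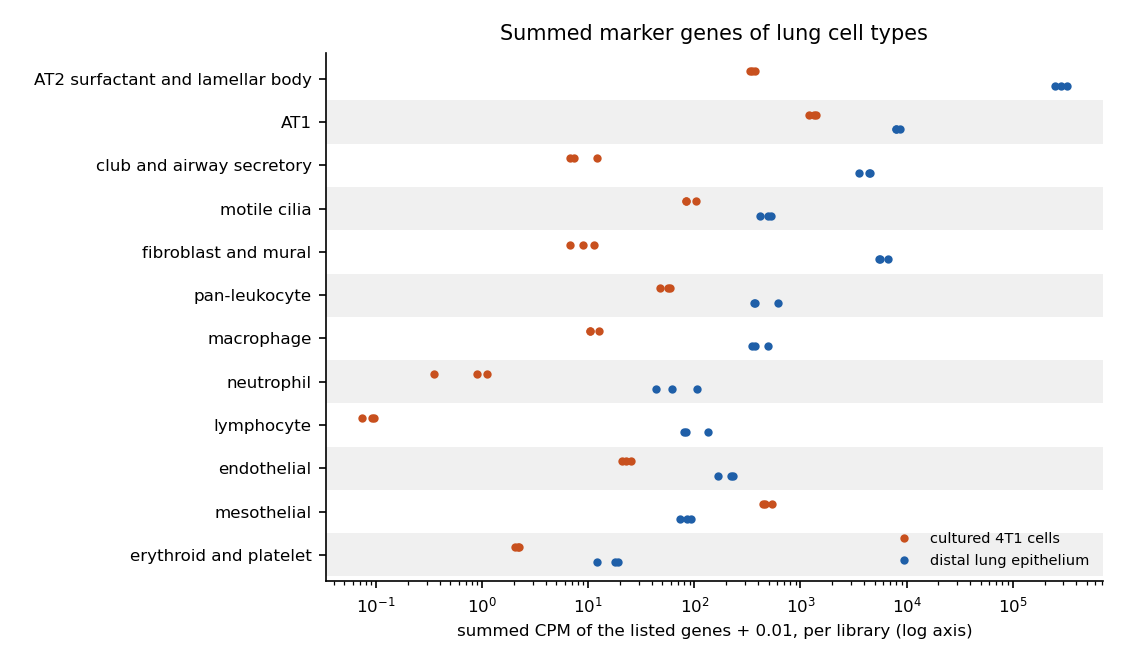
Summed CPM of the listed marker genes of 12 lung cell types, each point a library, on a log axis with 0.01 added, cultured 4T1 cells above distal epithelium in each row. AT2 genes sum to 337 to 371 CPM in 4T1 libraries and 250018 to 327080 CPM in distal libraries, and the mesothelial row is higher in 4T1 cells, where Msln makes up most of it.

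Most genes differed. Of 16738 genes tested, 13820 (82.6%) passed the test, 5814 of them higher in 4T1 cells (34.7% of genes tested) and 8006 lower (47.8%). With a change of at least 4-fold added, 1706 genes were higher (10.2%) and 4954 lower (29.6%), and the libraries of the groups did not overlap for 14209 genes (84.9%). The median log2 fold change of all genes tested was -0.33, and every list, above and below, is read against these shares. The split differed between fits: 42.1% of these calls were higher. In a limma fit on log2(TPM + 1), which changes the unit, the test and the filter together (15082 genes), 7219 genes were higher and 5235 lower, so that 58.0% of calls were higher and the median was 0.31. The same limma fit on TPM rescaled without the 10 most abundant distal genes (16191 genes) gave 4506 higher and 8639 lower, 34.3% of calls higher and a median of -0.55. With upper-quartile factors the median was -0.54, with 36.9% of calls higher. Sftpc, the gene for surfactant protein C, is among those 10 genes and took 18.4% ± 1.88 of distal counts and 32.1% ± 2.94 of distal TPM, which lowers every other distal gene on that scale.

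The genes that were highest per transcript length differed in kind between the groups. In 4T1 cells the leading genes by TPM were Actb at 11242 ± 866 TPM, Lgals1, a secreted galectin, at 10179.9 ± 139 TPM, the ferritin light chain Ftl1 at 9687 ± 1663 TPM and the translation factor Eif5a at 5703 ± 282 TPM. In distal epithelium they were Sftpc at 321435 ± 29370.3 TPM, the nuclear RNA Malat1 at 36805 ± 4598 TPM, Sftpa1 at 27348 ± 3610 TPM, the invariant chain Cd74 at 11110.5 ± 1119.8 TPM and the lysozyme Lyz2 at 10062 ± 1047 TPM. Actb and Malat1 were in the leading 10 of both groups, and the others named here led in 1 group. The 10 genes with the most counts in each group took 4.77% of counts in 4T1 cells and 28.0% in distal epithelium.

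The largest rises were taken from called genes of at least 50 CPM whose libraries did not overlap between groups, as were the largest falls. By fold change, these rises were of genes close to silent in distal epithelium. Klk10, a secreted kallikrein serine protease, measured 157, 178 and 149.7 CPM in cultured 4T1 cells, against 0.233, 0.588 and 0.470 CPM in distal epithelium, a log2 fold change of 8.56 ± 0.21 (SE, adjusted p = 9.46e-11). Igf2bp1, an oncofetal RNA-binding protein, measured 102, 104 and 101 CPM in cultured 4T1 cells, against 0.756, 0.588 and 0.739 CPM in distal epithelium, a log2 fold change of 7.18 ± 0.16 (SE, adjusted p = 5.29e-11). Other coding genes in that class included S100a7a (7.54 ± 0.50), Gpa33 (6.79 ± 0.33), Tnfrsf22 (6.75 ± 0.27), Padi3 (6.63 ± 0.51), Car12, a carbonic anhydrase (6.48 ± 0.26), and Dusp9, a phosphatase of MAP kinases (6.46 ± 0.20). The non-coding Lncenc1 had the largest fitted value, at 9.01 ± 0.39. The 10 largest fitted falls set no order among strongly lower genes, since fitted values of genes at 0 counts in 4T1 cells depend on the prior count. They were Cxcl15, Sftpa1, Lyz2 and Sftpc, Scgb1a1 of club cells, Igha and Jchain of plasma cells, the methyltransferase Inmt, Gas6, a ligand of the receptor kinase Axl, and Cd36, a fatty acid receptor. Gas6 was at least 20763-fold lower and Cd36 at least 19944-fold lower.

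Surfactant and lamellar body genes marked the distal libraries. Of 24 AT2 genes tested, 0 were higher, 23 were lower and 1 was not called, beside 47.8% of all genes lower, and all 23 fell by at least 4-fold, beside 29.6%. Sftpc measured 2.73, 1.44 and 1.05 CPM in cultured 4T1 cells, against 228929, 175783 and 194013 CPM in distal epithelium, a log2 fold change of -16.82 ± 0.44 (SE, adjusted p = 1.42e-10). Sftpb, the hydrophobic surfactant protein without which surfactant does not spread, measured 0.0427, 0.0628 and 0.0404 CPM in cultured 4T1 cells, against 6238, 4805 and 6238 CPM in distal epithelium, a log2 fold change of -16.66 ± 0.29 (SE, adjusted p = 4.15e-11). Sftpa1, a collectin of surfactant, measured 0.128, 0.251 and 0.0807 CPM in cultured 4T1 cells, against 31044, 22100.5 and 27914 CPM in distal epithelium, a log2 fold change of -17.30 ± 0.35 (SE, adjusted p = 4.50e-11). In each case the groups were separated by several orders of magnitude, with a trace of signal left in 4T1 libraries. The summed AT2 list in 4T1 cells was 0.122% of that in distal epithelium, and the median log2 fold change was -13.50, or -13.16 with members at 0 counts set at their bound.

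Promoters of 3 AT2 genes are shown, taken from the 4 whose window held CTCAAG, because Nkx2-1 is known to act on surfactant protein promoters. They were therefore chosen for the match. The windows hold 250 bases before and 50 after the start of the gene (RefSeq, GRCm38.p6, plus strand), with CTCAAG, the core of the Nkx2-1 site, searched on both strands and set in capitals. Cxcl15 lies at chr5:90794284-90794583, Sftpa1 at chr14:41131538-41131837 and Sftpb at chr6:72304360-72304659.
Cxcl15: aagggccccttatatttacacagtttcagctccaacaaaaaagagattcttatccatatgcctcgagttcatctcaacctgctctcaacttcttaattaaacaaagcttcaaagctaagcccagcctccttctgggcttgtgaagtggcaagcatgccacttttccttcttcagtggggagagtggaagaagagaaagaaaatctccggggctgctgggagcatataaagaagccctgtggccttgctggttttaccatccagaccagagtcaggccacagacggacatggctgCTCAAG
Sftpa1: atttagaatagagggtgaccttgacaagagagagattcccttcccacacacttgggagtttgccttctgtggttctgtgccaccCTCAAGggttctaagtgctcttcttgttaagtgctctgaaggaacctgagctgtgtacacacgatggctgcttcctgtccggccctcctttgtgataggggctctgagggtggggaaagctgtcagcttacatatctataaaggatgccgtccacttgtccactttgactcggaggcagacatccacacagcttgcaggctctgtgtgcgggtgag
Sftpb: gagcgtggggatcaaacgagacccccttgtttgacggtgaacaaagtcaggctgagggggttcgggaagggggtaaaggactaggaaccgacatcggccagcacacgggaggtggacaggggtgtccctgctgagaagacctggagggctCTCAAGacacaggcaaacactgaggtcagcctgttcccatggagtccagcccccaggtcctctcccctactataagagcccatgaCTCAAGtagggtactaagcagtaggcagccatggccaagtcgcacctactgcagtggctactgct
The hexamer starts at base 295 in Cxcl15, base 85 in Sftpa1 and bases 151 and 236 in Sftpb, counted from 1 at the start of the window. Bases after 250 lie within the gene, so the Cxcl15 match is not upstream of the start, unlike those of Sftpa1 and Sftpb. A promoter was available for 17 of the 24 AT2 genes. CTCAAG on either strand was in 4 of the 17 (Sftpb, Sftpa1, Cxcl15 and Muc1), or 23.5%, against 15.9% of all 32851 promoters and 18.0% of 27025 genes. The window of Klk10, which was higher in 4T1 cells, also held the hexamer, on the other strand at base 226. The forkhead motif TGTTTAC was in 3 of 17 (Lamp3, Etv5 and Il33) against 3.65% of all promoters, the C/EBP motif TTGCNNAA in 5 of 17 (Slc34a2, Dram1, Lyz1, Il33 and Bex2) against 10.8%, and the AP-1 motif TGANTCA in 1 of 17 (Sftpb) against 7.81%. These are matches of letters in a window and no sites were measured.

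The rest of the AT2 list fell by very different amounts. Cxcl15, a lung chemokine, measured 0 counts in all 3 libraries in cultured 4T1 cells, against 2359, 1789 and 2423 CPM in distal epithelium, at least 58457-fold lower (adjusted p = 4.00e-10). The phosphate transporter Slc34a2 had 109555-fold (95% counting interval 30328 to 904645) lower counts, the protease Napsa 26048-fold (95% counting interval 8913 to 126314) and the collectin Sftpd 109474-fold (95% counting interval 30305 to 903968). Lamp3, a lamellar body membrane protein, measured 0.0854, 0.0628 and 0.0404 CPM in cultured 4T1 cells, against 1138, 858 and 1025 CPM in distal epithelium, a log2 fold change of -13.85 ± 0.26 (SE, adjusted p = 4.15e-11). These genes were at or near 0 in every 4T1 library and did not overlap between groups. Other members kept a clear level in 4T1 cells. Abca3, which pumps phospholipid into lamellar bodies, measured 32.3, 26.5 and 23.9 CPM in cultured 4T1 cells, against 469.6, 407 and 391 CPM in distal epithelium, a log2 fold change of -3.94 ± 0.15 (SE, adjusted p = 1.29e-09). Lpcat1, which makes the disaturated phosphatidylcholine of surfactant, measured 49.98 ± 4.14 CPM in 4T1 cells and 807 ± 77.0 CPM in distal epithelium (log2 fold change -4.01 ± 0.13), Etv5, an ETS factor, 42.1 ± 2.45 CPM in 4T1 cells and 414 ± 53.9 CPM in distal epithelium (-3.30 ± 0.13), and the cathepsin Ctsh 104 ± 1.93 CPM in 4T1 cells and 709 ± 81.6 CPM in distal epithelium (-2.77 ± 0.12). The lipid carrier Fabp5 was the member not called, at 44.6 ± 5.67 CPM in 4T1 cells and 45.3 ± 13.6 CPM in distal epithelium (-0.02 ± 0.19, adjusted p = 0.921).

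**Figure D2:**
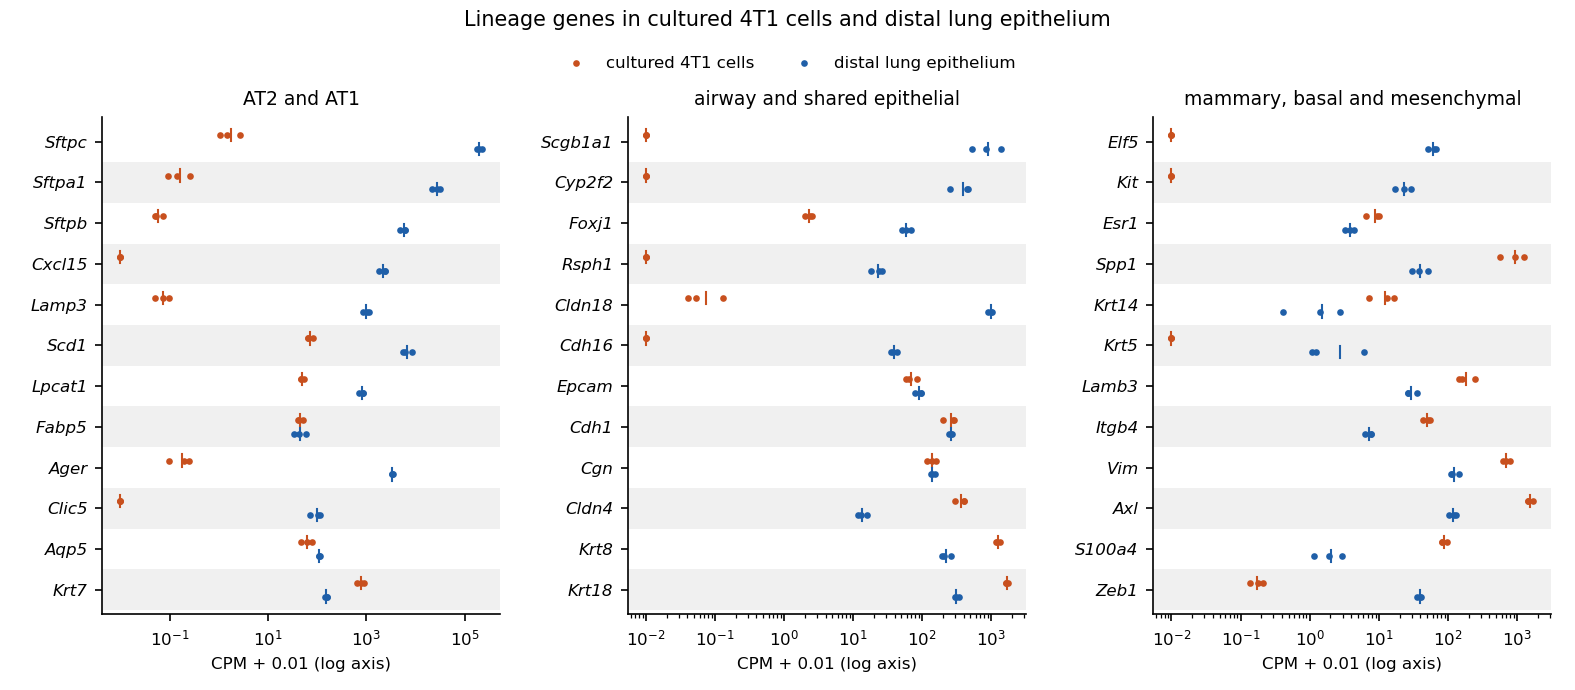
CPM of lineage genes on log axes with 0.01 added, so that 0 counts is drawn at 0.01. Points are libraries and vertical marks are group means, with cultured 4T1 cells above distal epithelium in each row. Sftpc lies between 1.05 and 2.73 CPM in 4T1 libraries while Krt8, Krt18, Cldn4, Spp1, Axl and S100a4 are higher in every 4T1 library, and Cdh1 overlaps.

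AT1 genes were lower as a list but not uniformly. Of 21 tested, 2 were higher, 19 were lower and 0 were not called, with a median of -7.82 and a summed level of 1203 to 1409.8 CPM in 4T1 libraries and 7946 to 8601 CPM in distal libraries. Ager, the receptor that marks AT1 membranes, measured 0.0854, 0.188 and 0.242 CPM in cultured 4T1 cells, against 3298, 3485 and 3399 CPM in distal epithelium, a log2 fold change of -14.20 ± 0.24 (SE, adjusted p = 4.15e-11). Hopx, a homeodomain protein without DNA binding, had a 6752-fold (95% counting interval 1211 to 266761) lower count, and the chloride channel protein Clic5 was at least 2601-fold lower. The water channel Aqp5 measured 78.2, 62.1 and 47.9 CPM in cultured 4T1 cells, against 109, 113 and 111 CPM in distal epithelium, a log2 fold change of -0.82 ± 0.16 (SE, adjusted p = 0.000472), and so differed far less than Ager, although the groups still did not overlap, and on TPM it stood at 0.27. Caveolin genes went different ways: Cav1 measured 40.2 ± 10.96 CPM in 4T1 cells and 136 ± 12.1 CPM in distal epithelium (-1.76 ± 0.17) and Cav2 237 ± 60.8 CPM in 4T1 cells and 85.2 ± 12.3 CPM in distal epithelium (1.48 ± 0.19). The keratin Krt7, which is also a luminal and carcinoma keratin, was the other member higher in 4T1 cells, at 918, 776 and 645 CPM in 4T1 libraries and 141, 157 and 161 CPM in distal libraries (2.35 ± 0.14).

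Airway genes were present in distal libraries and largely absent from 4T1 cells. All 12 club and airway secretory genes tested were lower, with a summed level of 6.75 to 11.99 CPM in 4T1 libraries and 3533 to 4484 CPM in distal libraries and a median of -10.88, or -8.81 with members at 0 counts set at their bound. Scgb1a1, the club cell secretoglobin, measured 0 counts in all 3 libraries in cultured 4T1 cells, against 839.6, 1378 and 532 CPM in distal epithelium, at least 24457-fold lower (adjusted p = 3.03e-08). Its distal libraries differed by more than 2-fold among themselves, between 532 CPM in replicate C and 1378 CPM in replicate B. Cyp2f2, a club cell cytochrome, was at least 10371-fold lower. Of 20 genes of motile cilia, 1 was higher, 19 were lower and 0 were not called, and 9 of them (Rsph1, Dnah5 and Dynlrb2 among them) were at 0 counts in all 4T1 libraries. Foxj1, the master factor of motile cilia, kept a low level: it measured 2.56, 2.38 and 1.98 CPM in cultured 4T1 cells, against 57.8, 68.9 and 51.4 CPM in distal epithelium, a log2 fold change of -4.68 ± 0.17 (SE, adjusted p = 1.11e-09). Cfap43, a protein of the ciliary axoneme, was the exception at 73.6 ± 10.8 CPM in 4T1 cells and 32.5 ± 6.29 CPM in distal epithelium (1.18 ± 0.16).

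Genes shared by epithelia were present in both groups. Of 28 junction genes, 7 were higher, 16 were lower and 5 were not called, with a median of -0.35, close to the median of all genes. On TPM it was 0.19, against 0.31 for all genes. E-cadherin, Cdh1, measured 294, 281 and 203 CPM in cultured 4T1 cells, against 275, 262 and 242 CPM in distal epithelium, with a log2 fold change of -0.00 ± 0.14 (adjusted p = 0.994). The groups overlapped. Epcam, the surface protein by which the lung cells are titled, measured 58.0, 65.3 and 85.2 CPM in cultured 4T1 cells, against 95.7, 80.3 and 96.5 CPM in distal epithelium, a log2 fold change of -0.39 ± 0.15 (SE, adjusted p = 0.0304). Its libraries overlapped too, the call was lost without 4T1 replicate A (adjusted p = 0.153) or B (0.118) and without distal replicate R1 (0.0785) or C (0.0760), and on TPM the direction turned to 0.10.

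Claudins, the proteins of tight junctions, differed by member. Cldn4 measured 410, 305 and 401 CPM in cultured 4T1 cells, against 16.0, 11.8 and 13.2 CPM in distal epithelium, a log2 fold change of 4.76 ± 0.17 (SE, adjusted p = 9.93e-10). Cldn18, the claudin of alveolar cells, measured 0.0427, 0.0314 and 0.121 CPM in cultured 4T1 cells, against 1005, 913 and 1048 CPM in distal epithelium, a log2 fold change of -13.82 ± 0.25 (SE, adjusted p = 4.15e-11). Cldn3 (-3.01 ± 0.13) and Cldn7 (-2.64 ± 0.25) were lower in 4T1 cells and kept 30.2 ± 3.56 CPM and 13.9 ± 5.78 CPM there, while the kidney and lung cadherin Cdh16 was at least 1040-fold lower. Desmosome genes were divided: Pkp3 rose by 1.89 ± 0.15 and Dsg2 by 1.31 ± 0.17 on the log2 scale, and Jup, plakoglobin, fell by 1.07. The splicing factors Esrp1 and Esrp2, which keep the epithelial forms of transcripts, were both called lower, Esrp2 with a log2 fold change of -0.66 ± 0.11, and remained at 16.4 ± 1.54 CPM and 25.4 ± 0.428 CPM in 4T1 cells.

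Simple epithelial keratins rose together. Krt8 measured 1204, 1363 and 1164 CPM in cultured 4T1 cells, against 207, 198 and 263 CPM in distal epithelium, a log2 fold change of 2.48 ± 0.14 (SE, adjusted p = 2.95e-08). Its partner Krt18 measured 1654, 1752 and 1672 CPM in cultured 4T1 cells, against 307, 296 and 341 CPM in distal epithelium, a log2 fold change of 2.43 ± 0.12 (SE, adjusted p = 7.84e-09). Each 4T1 library was above each distal library, and Krt19 was higher by a smaller amount (0.33 ± 0.11, adjusted p = 0.0162), a call lost without distal replicate R1 (adjusted p = 0.0897).

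Mammary genes were divided. Of 32 luminal genes listed only 20 passed the filter on low counts, and of these 10 were higher, 8 were lower and 2 were not called. The median was 0.21, -0.00 with upper-quartile scaling, and the mean -1.91. The milk protein genes Csn1s1, Csn1s2a, Wap and Lalba had 0 counts in all 6 libraries, and Csn3 had 0.796 ± 0.694 CPM in 4T1 cells and 0.0388 ± 0.0672 CPM in distal epithelium, untested. Spp1, osteopontin, measured 1279, 924 and 576 CPM in cultured 4T1 cells, against 38.1, 30.7 and 51.6 CPM in distal epithelium, a log2 fold change of 4.53 ± 0.30 (SE, adjusted p = 9.34e-08). The oestrogen receptor Esr1 measured 9.52, 10.1 and 6.46 CPM in cultured 4T1 cells, against 3.2, 4.38 and 3.83 CPM in distal epithelium, a log2 fold change of 1.198 ± 0.24 (SE, adjusted p = 0.000806). These 2 genes were higher in every 4T1 library, although Spp1 varied by more than 2-fold between them. The luminal progenitor receptor Kit was at least 616-fold lower and Elf5, the factor of luminal alveolar cells, at least 1613-fold lower; both are also expressed by lung cells.

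Basal genes differed in both directions. Of 18 tested, 7 were higher, 10 were lower and 1 was not called, with a median of -1.46. It turned to 0.59 on TPM, where the median of all genes was 0.31. The hemidesmosome integrin Itgb4 and the laminin gene Lamb3 were higher in 4T1 cells: Itgb4 measured 51.6, 55.1 and 44.3 CPM in cultured 4T1 cells, against 7.74, 6.40 and 7.66 CPM in distal epithelium (2.79 ± 0.15) and Lamb3 185 ± 55.7 CPM in 4T1 cells and 29.4 ± 5.06 CPM in distal epithelium (2.65 ± 0.21). The groups did not overlap for these genes. Krt14 measured 7.26, 13.2 and 16.5 CPM in cultured 4T1 cells, against 0.407, 2.74 and 1.41 CPM in distal epithelium, a log2 fold change of 3.04 ± 0.49 (SE, adjusted p = 0.000144), and Krt5, its partner in basal cells, had 0 counts in all 3 libraries in cultured 4T1 cells, against 1.22, 6.01 and 1.08 CPM in distal epithelium, at least 73.9-fold lower (adjusted p = 0.000226). Trp63, the basal cell factor p63, had a 161-fold (95% counting interval 44.1 to 1342) lower count. The contractile genes of myoepithelium and smooth muscle were lower, with Acta2 at a 7069.9-fold (95% counting interval 1268 to 279312) lower count and Myh11 at least 906-fold lower, and distal libraries with fibroblast and mural RNA express both.

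Mesenchymal genes did not move as a block. Of 26 tested, 6 were higher, 18 were lower and 2 were not called, with a median of -2.41. Vimentin, Vim, the intermediate filament of mesenchyme, measured 627, 783 and 689 CPM in cultured 4T1 cells, against 112, 117 and 144 CPM in distal epithelium, a log2 fold change of 2.49 ± 0.14 (SE, adjusted p = 2.47e-08). Axl, a receptor tyrosine kinase, measured 1445, 1720.4 and 1419 CPM in cultured 4T1 cells, against 103, 123 and 131 CPM in distal epithelium, a log2 fold change of 3.68 ± 0.15 (SE, adjusted p = 1.95e-09). S100a4, a calcium-binding protein of motile cells, measured 83.2, 83.6 and 97.7 CPM in cultured 4T1 cells, against 1.16, 1.89 and 2.96 CPM in distal epithelium, a log2 fold change of 5.47 ± 0.24 (SE, adjusted p = 3.35e-09). These 3 were higher in all 4T1 libraries. The matrix genes Col1a1 (-11.51 ± 0.21) and Col3a1 (-14.05 ± 0.30) were lower, and N-cadherin, Cdh2, was at least 48.0-fold lower from a distal level of only 1.80 ± 0.420 CPM. Col1a1 and Col3a1 are themselves among the fibroblast and mural markers, which summed to 6.70 to 11.4 CPM in 4T1 libraries and 5557 to 6750.1 CPM in distal libraries. The part of fibroblast and mural cells in the difference was not tested.

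Among transcription factors of mesenchymal transition, Twist1 was higher. It measured 2.39, 2.54 and 2.42 CPM in cultured 4T1 cells, against 0, 0.0653 and 0.0672 CPM in distal epithelium, a 58.3-fold higher count ratio (95% counting interval 15.9 to 485, adjusted p = 3.38e-06), and its distal libraries held 2 counts in all. Zeb1 measured 0.171, 0.126 and 0.202 CPM in cultured 4T1 cells, against 41.3, 40.0 and 35.9 CPM in distal epithelium, a log2 fold change of -7.86 ± 0.22 (SE, adjusted p = 1.93e-10), Snai2 measured 0.0785 ± 0.0720 CPM in 4T1 cells and 18.9 ± 3.50 CPM in distal epithelium (-7.86 ± 0.38) and Zeb2 31.8 ± 2.47 CPM in 4T1 cells and 75.7 ± 8.12 CPM in distal epithelium (-1.25 ± 0.12). Zeb1 and Snai2 were near 0 in all 4T1 libraries, whereas Zeb2 was not. Snai1 was not called (-0.29 ± 0.14, adjusted p = 0.0701), nor were the epithelial factors Grhl2 (0.10 ± 0.14, adjusted p = 0.517) and Ovol1 (0.31 ± 0.26, adjusted p = 0.287). Over 15 factors 3 were higher, 9 were lower and 3 were not called, and the other two that were higher were Foxc2 (3.60 ± 0.35) and Snai3 (2.39 ± 0.37).

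Most lung lineage transcription factors were lower in 4T1 cells. Of 47 tested among 51 listed, 4 were higher, 39 were lower and 4 were not called, with a median of -5.62, or -5.01 with members at 0 counts set at their bound, and 32 fell by at least 4-fold. Nkx2-1 measured 0 counts in all 3 libraries in cultured 4T1 cells, against 149.6, 148 and 144 CPM in distal epithelium, at least 3929-fold lower (adjusted p = 2.60e-10). Cebpa, which AT2 cells need for surfactant synthesis, had 0 counts in all 3 libraries in cultured 4T1 cells, against 62.6, 50.3 and 61.5 CPM in distal epithelium, at least 1551-fold lower (adjusted p = 1.81e-09). Foxa2, a forkhead factor of foregut endoderm, had 0 counts in all 3 libraries in cultured 4T1 cells, against 22.7, 19.3 and 25.0 CPM in distal epithelium, at least 596-fold lower (adjusted p = 1.19e-08). The distal libraries of Nkx2-1 lay close together, and no 4T1 library held a count of any of these 3 genes.

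Among 13903 protein-coding genes considered, 1471 had at least 1 CPM in every distal library and at most 1 count in every 4T1 library. The listed factors below met a stricter distal level and were chosen through the group where they are high. No listed factor met the reverse rule. Across the listed factors with at least 10 CPM in distal epithelium, 19 had at most 1 count in each 4T1 library. Beside Nkx2-1, Cebpa and Foxa2 they included the GATA factors Gata5 (20.8 ± 4.73 CPM in distal epithelium) and Gata6 (25.9 ± 4.65 CPM), the T-box factors Tbx2, Tbx3, Tbx4 and Tbx5 (31.0, 26.2, 12.8 and 20.1 CPM in that order), Irx5 (34.5 ± 0.868 CPM), Foxp2 (20.1 ± 0.0908 CPM), Elf5 (60.5 ± 8.20 CPM), Hopx, Hoxb5, Thrb, Rora, Npas2 and the heat shock gene Hspa1a of the immediate early list. Gata6 and Foxa2 regulate surfactant genes, Tbx4 and Tbx5 lung mesenchyme and budding, and Tbx2 and Tbx3 growth of the embryonic lung. Foxa1, in contrast, kept 2.31, 2.07 and 1.78 CPM in cultured 4T1 cells, against 31.7, 27.4 and 24.9 CPM in distal epithelium, a log2 fold change of -3.77 ± 0.18 (SE, adjusted p = 6.99e-09). Tcf21 (56.6 ± 14.1 CPM in distal epithelium) and Tbx4 are factors of lung mesenchyme, and Tcf21 is itself among the fibroblast and mural markers above.

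Of the lung factors, 4 rose. Sox9, a factor of distal lung progenitors in development and of mammary stem cells, measured 196, 206 and 174 CPM in cultured 4T1 cells, against 4.89, 5.68 and 5.98 CPM in distal epithelium, a log2 fold change of 5.12 ± 0.14 (SE, adjusted p = 1.62e-10). Etv4, an ETS factor downstream of FGF signals, measured 65.3, 76.8 and 82.5 CPM in cultured 4T1 cells, against 2.44, 2.03 and 2.42 CPM in distal epithelium, a log2 fold change of 5.02 ± 0.16 (SE, adjusted p = 4.48e-10). Both stood far apart between groups, and the close relative Etv5 went the other way (-3.30 ± 0.13). Klf5 (0.67 ± 0.11) and Hoxa5 (0.63 ± 0.18) were higher by less than 2-fold. Sox4 (0.17 ± 0.16, adjusted p = 0.331), Grhl2, Irx2 (-0.10 ± 0.18, adjusted p = 0.605) and Rfx3 (-0.60 ± 0.26, adjusted p = 0.0523) were not called. Nuclear factor I genes stayed well expressed, with Nfib at 61.3 ± 5.91 CPM in 4T1 cells and 155 ± 8.27 CPM in distal epithelium (-1.34 ± 0.11) and Nfia at 113 ± 13.5 CPM in 4T1 cells and 289 ± 40.6 CPM in distal epithelium (-1.35 ± 0.14).

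Factors linked with mammary gland and carcinoma were more often higher. Of 35 tested among 54 listed, 20 were higher, 12 were lower and 3 were not called, beside 34.7% of all genes higher, with a median of 1.198 and a mean of -0.36. Gata3, the luminal mammary factor, measured 272, 307 and 262 CPM in cultured 4T1 cells, against 15.2, 14.6 and 34.2 CPM in distal epithelium, a log2 fold change of 3.72 ± 0.29 (SE, adjusted p = 3.34e-07). Hmga2, an architectural chromatin protein of embryonic and cancer cells, measured 106, 118 and 127 CPM in cultured 4T1 cells, against 1.45, 0.719 and 2.08 CPM in distal epithelium, a log2 fold change of 6.36 ± 0.24 (SE, adjusted p = 1.18e-09). Tfap2a, an AP-2 factor of ectoderm, measured 56.5, 60.8 and 60.2 CPM in cultured 4T1 cells, against 0.873, 0.9801 and 0.806 CPM in distal epithelium, a log2 fold change of 6.05 ± 0.16 (SE, adjusted p = 1.54e-10). Each 4T1 library exceeded each distal library for the 3 genes. Hmga1 rose by 5.39 ± 0.20, Tbx15 by 5.41 ± 0.39, Pitx1 by 4.11 ± 0.33, Elk3 by 3.23 ± 0.14, Ets1 by 2.16 ± 0.18 and Runx1 by 0.52 ± 0.10 on the log2 scale. Dlx1 rose by 6.35 ± 0.58, a value that rests on distal replicate R1, the only distal library with a count, and the fitted value without it, 10.33, depends on the prior count and is no bound. Elf5 was at 0 counts in 4T1 cells, and Tfap2c, at 0.643 ± 0.288 CPM in 4T1 cells and 0.107 ± 0.137 CPM in distal epithelium, did not pass the filter.

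**Figure D3:**
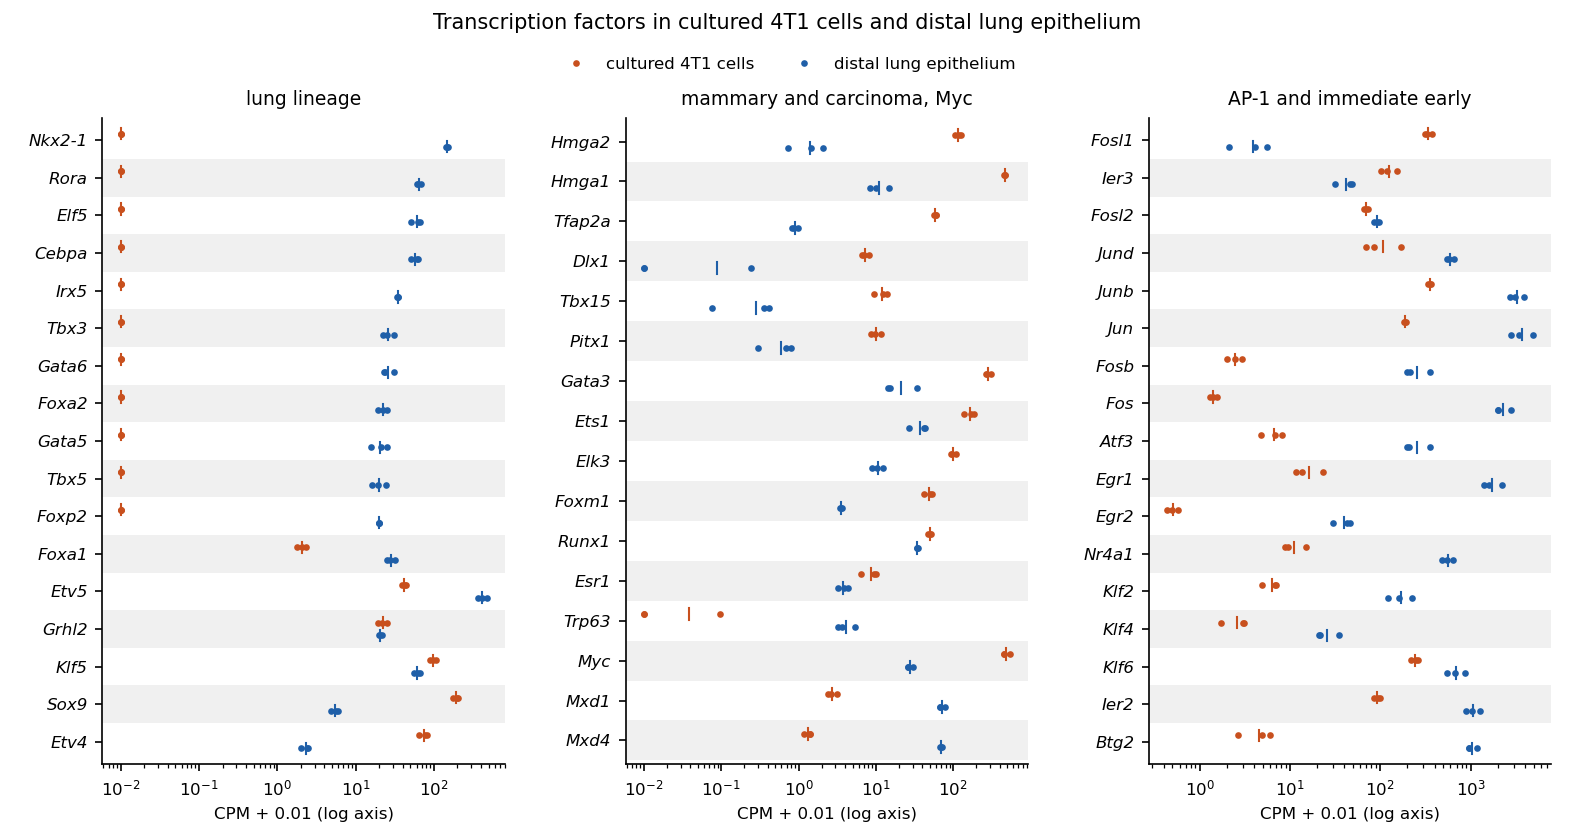
CPM of transcription factors on log axes with 0.01 added, so that 0 counts is drawn at 0.01. Points are libraries and vertical marks are group means, with cultured 4T1 cells above distal epithelium in each row. The lung factors from Nkx2-1 to Foxp2 are at 0 in 4T1 cells, the mammary and carcinoma factors from Hmga2 to Esr1 and Myc are higher there, and of the immediate early genes Fosl1 and Ier3 are higher and the others lower.

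Hox genes, which are expressed by position along the body in ordered clusters, differed by cluster. In Hox A on chromosome 6, 7 of 8 tested genes were higher in 4T1 cells and Hoxa7 was not called (0.23 ± 0.23, adjusted p = 0.377), and the summed level was 73.3 to 86.6 CPM in 4T1 libraries and 25.5 to 34.0 CPM in distal libraries. Hoxa10 measured 23.8, 21.8 and 25.3 CPM in cultured 4T1 cells, against 0.116, 0.196 and 0.403 CPM in distal epithelium, a log2 fold change of 6.63 ± 0.29 (SE, adjusted p = 3.51e-09). Hoxa5, which has a role in lung development, measured 20.5, 16.1 and 16.7 CPM in cultured 4T1 cells, against 9.89, 13.98 and 10.6 CPM in distal epithelium, a log2 fold change of 0.63 ± 0.18 (SE, adjusted p = 0.00626). Hoxa10 was near 0 in distal epithelium, while Hoxa5 was well expressed in both groups. In Hox B on chromosome 11, all 6 tested genes had 0 counts in all 4T1 libraries. Hoxb5 had 0 counts in all 3 libraries in cultured 4T1 cells, against 10.6, 19.5 and 14.2 CPM in distal epithelium, at least 395-fold lower (adjusted p = 1.64e-07), Hoxb2 was at least 193-fold lower and Hoxb4 at least 171-fold lower. No gene of the Hox C or Hox D clusters passed the filter in either group, where the highest distal mean was 0.683 ± 0.541 CPM (Hoxc4). Hoxa9 was called by edgeR (2.17 ± 0.67, adjusted p = 0.0103) at a very low level and not by DESeq2 (adjusted p = 0.0627).

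**Figure D4:**
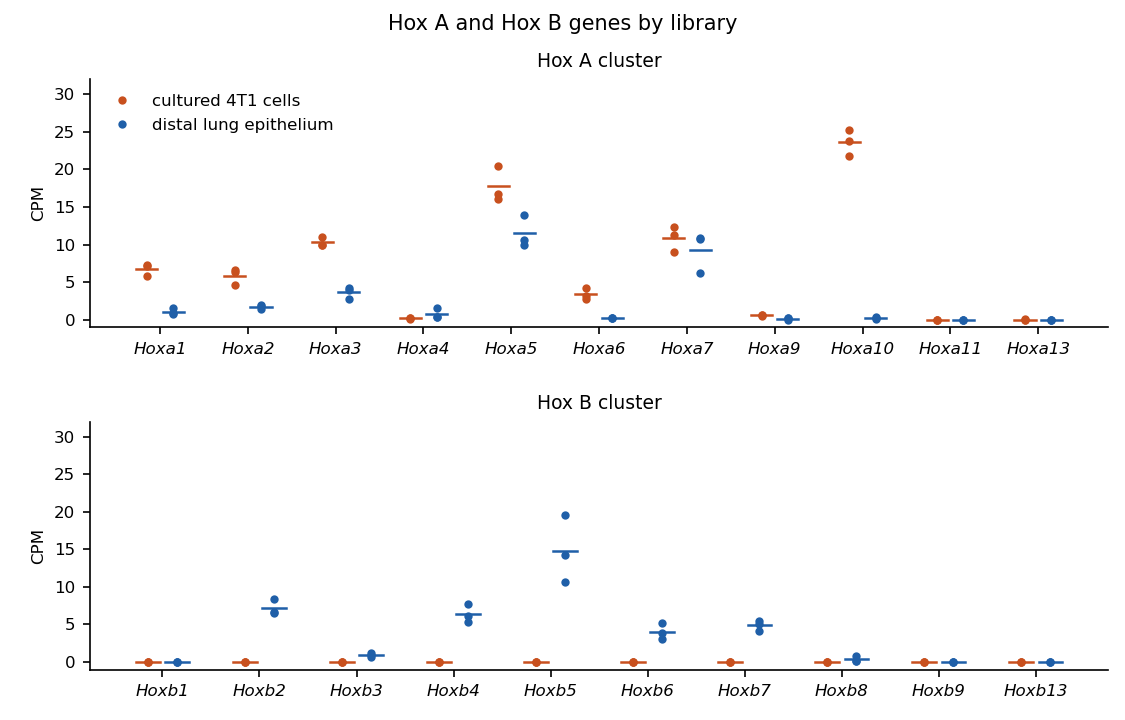
CPM of Hox A and Hox B genes by library on linear axes, cultured 4T1 cells left of distal epithelium for each gene, with group means as horizontal marks. Hoxa10 stands at 21.8 to 25.3 CPM in 4T1 libraries, and every Hox B gene is at 0 there.

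AP-1 and immediate early genes, which respond within minutes to stress or growth factors, were lower in 4T1 cells in 24 of 26 cases and higher in 2, with a median of -3.91. Fos measured 1.28, 1.54 and 1.41 CPM in cultured 4T1 cells, against 2016, 2826 and 2021 CPM in distal epithelium, a log2 fold change of -10.65 ± 0.23 (SE, adjusted p = 5.29e-11). Egr1 measured 23.4, 13.7 and 11.6 CPM in cultured 4T1 cells, against 1595, 2231 and 1406 CPM in distal epithelium, a log2 fold change of -6.75 ± 0.31 (SE, adjusted p = 5.54e-09). Jun measured 189, 195 and 185 CPM in cultured 4T1 cells, against 3438, 4932 and 2809 CPM in distal epithelium, a log2 fold change of -4.29 ± 0.21 (SE, adjusted p = 8.53e-09). Distal libraries were far higher for all 3 genes. Dissociation and sorting of lung cells are known to induce these genes, and here the steps and the group cannot be told apart. Fosl1, which encodes the AP-1 subunit Fra-1, went the other way: it measured 334, 374 and 312 CPM in cultured 4T1 cells, against 2.09, 4.12 and 5.58 CPM in distal epithelium, a log2 fold change of 6.45 ± 0.26 (SE, adjusted p = 2.40e-09), and its relative Fosl2 differed little (-0.39 ± 0.10). Ier3 was the other gene higher in 4T1 cells (1.57 ± 0.19). Hspa1a had 0 counts in 4T1 cells and 526 ± 318 CPM in distal epithelium, but its near-identical copy Hspa1b kept 5.50 ± 0.291 CPM against 22.4 ± 11.1 CPM, and the split of reads between these copies is uncertain.

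In the Myc and Max network, Myc itself was higher and its antagonists Mxd1 and Mxd4 were lower. Myc, which drives growth genes, measured 455, 542 and 452 CPM in cultured 4T1 cells, against 25.7, 26.0 and 30.6 CPM in distal epithelium, a log2 fold change of 4.14 ± 0.14 (SE, adjusted p = 5.61e-10). Mxd4, a repressor that competes for Max, measured 1.41, 1.41 and 1.17 CPM in cultured 4T1 cells, against 68.7, 71.2 and 67.6 CPM in distal epithelium, a log2 fold change of -5.69 ± 0.14 (SE, adjusted p = 1.16e-10), and Mxd1 measured 3.12, 2.64 and 2.42 CPM in cultured 4T1 cells, against 67.5, 67.7 and 77.5 CPM in distal epithelium, a log2 fold change of -4.70 ± 0.15 (SE, adjusted p = 4.00e-10). Max, the partner that Myc and the Mxd proteins share, was not called (0.16 ± 0.13, adjusted p = 0.255). Mxd3, the family member expressed in dividing cells, rose by 2.81 ± 0.28, and Mycn and Mlxipl, the carbohydrate response factor, were at 0 counts in 4T1 cells. Over 13 genes, 3 were higher, 6 were lower and 4 were not called, with a median of -0.27. It turned to 0.57 on TPM, where the median of all genes was 0.31.

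Nuclear receptors were mostly lower, with 6 of 31 tested higher, 21 lower and 4 not called and a median of -1.07. Ppard, a receptor for fatty acids, measured 19.6, 21.2 and 19.7 CPM in cultured 4T1 cells, against 6.46, 5.95 and 6.32 CPM in distal epithelium, a log2 fold change of 1.69 ± 0.15 (SE, adjusted p = 8.24e-07), whereas Ppara had a 602-fold (95% counting interval 107 to 23832) lower count and Pparg a 60.8-fold (95% counting interval 20.3 to 299.7) lower count. So the 3 PPAR genes did not share a direction. The liver X receptor Nr1h3 measured 3.25, 3.23 and 4.04 CPM in cultured 4T1 cells, against 50.4, 51.6 and 48.5 CPM in distal epithelium, a log2 fold change of -3.84 ± 0.14 (SE, adjusted p = 1.27e-09), and the glucocorticoid receptor Nr3c1, which is required for lung maturation, measured 43.3, 45.5 and 38.0 CPM in cultured 4T1 cells, against 107, 104 and 109.7 CPM in distal epithelium, a log2 fold change of -1.34 ± 0.11 (SE, adjusted p = 4.34e-07). Thrb was at least 634-fold lower and Rora at least 1713-fold lower. Of 18 clock genes 14 were lower (8 on TPM and 13 on rescaled TPM) and 3 higher (1 on rescaled TPM). The lower genes included Cry2 (-2.31 ± 0.15) and Arntl (-1.72 ± 0.20), and the higher genes were Ciart (2.27 ± 0.18), Bhlhe41 (0.87 ± 0.23) and Nr1d2 (0.65 ± 0.27, adjusted p = 0.0429). Distal libraries spread widely for Dbp (0.641, 0.784 and 0.363 CPM in 4T1 libraries, against 18.9, 3.92 and 0.941 CPM in distal libraries), whose log2 fold change of -3.71 moved to -2.02 without distal replicate R1. Nr1d2 lost its call when single libraries were left out, for example without distal replicate C (adjusted p = 0.061).

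Genes of glucose use were higher in 4T1 cells along most of the pathway. Of 34 genes of glucose transport and glycolysis tested, 20 were higher, 13 were lower and 1 was not called, with a median of 1.40 and a mean of -0.52, with a few members such as Hk3, Ldhb and Pdk2 falling steeply. Pkm, pyruvate kinase of the last step, measured 6625, 6664 and 6208 CPM in cultured 4T1 cells, against 468, 471 and 519 CPM in distal epithelium, a log2 fold change of 3.74 ± 0.13 (SE, adjusted p = 9.50e-10). Pgk1, phosphoglycerate kinase, measured 785, 724 and 677 CPM in cultured 4T1 cells, against 70.2, 75.5 and 89.9 CPM in distal epithelium, a log2 fold change of 3.21 ± 0.13 (SE, adjusted p = 2.71e-09). The glucose transporter Slc2a1 measured 137, 124 and 92.9 CPM in cultured 4T1 cells, against 26.8, 24.9 and 22.4 CPM in distal epithelium, a log2 fold change of 2.25 ± 0.15 (SE, adjusted p = 1.16e-07). Each of the 3 was higher in every 4T1 library, as were both enolases, Eno1 (4.64 ± 0.17) and Eno3 (5.16 ± 0.14), and Pfkl (2.40 ± 0.14). Gapdh (3.05 ± 0.14) and Eno1 have near-identical copies in the genome, so their levels rest on how reads common to the copies were assigned.

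Isoforms of the same step differed. Ldha, the lactate dehydrogenase subunit of fast glycolysis, measured 1905, 1783 and 1586 CPM in cultured 4T1 cells, against 325, 258 and 379 CPM in distal epithelium, a log2 fold change of 2.46 ± 0.16 (SE, adjusted p = 7.28e-08). Ldhb, the heart subunit, measured 1.67, 2.57 and 4.802 CPM in cultured 4T1 cells, against 306, 272 and 299 CPM in distal epithelium, a log2 fold change of -6.60 ± 0.29 (SE, adjusted p = 3.95e-09). Ldha made up 99.8% ± 0.121 of the summed TPM of both genes in 4T1 cells and 47.2% ± 3.23 in distal epithelium. Hexokinase Hk3, found in myeloid cells, was at least 628-fold lower, and pan-leukocyte markers (47.5 to 59.3 CPM in 4T1 libraries and 362 to 610.4 CPM in distal libraries) move with it. Their part in it was not tested. Hk1 (1.77 ± 0.12) and Hk2 (1.33 ± 0.14) were higher, with Hk1 at 64.9% ± 1.57 of their summed TPM in 4T1 cells and 54.6% ± 2.89 in distal epithelium. Slc2a1 made up 99.9% ± 0.145 of the TPM of Slc2a1 and Slc2a3 in 4T1 cells and 77.6% ± 1.96 in distal epithelium. The pyruvate dehydrogenase kinases split as well, with Pdk1 (2.06 ± 0.15) and Pdk3 (1.82 ± 0.11) higher, Pdk2 (-5.63 ± 0.19) lower and Pdk4 at least 230.1-fold lower. The regulators Pfkfb2 (-3.12 ± 0.16), Pfkfb3 (-2.17 ± 0.13) and Pfkfb4 (-2.54 ± 0.13), which set the level of an activator of phosphofructokinase, were lower, and Pfkfb1 was higher at a low level (3.79 ± 0.953 CPM in 4T1 cells and 1.33 ± 0.506 CPM in distal epithelium).

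Of 12 genes of gluconeogenesis and glycogen, 4 were higher, 7 were lower and 1 was not called, and on rescaled TPM 0 were higher and 7 lower. Fbp2, fructose bisphosphatase, had a 10347-fold (95% counting interval 1856 to 408754) lower count, Pygl, the liver form of glycogen phosphorylase, was at least 1562-fold lower and pyruvate carboxylase Pcx fell by 3.71 on the log2 scale. Glycogen synthase Gys1 was higher (0.80 ± 0.15), and on rescaled TPM with limma it was not called (0.33, adjusted p = 0.119). Of 16 genes of the pentose phosphate pathway and NADPH supply, 9 were higher, 2 were lower and 5 were not called (5 lower on rescaled TPM), with G6pdx, the entry enzyme, at 131 ± 27.0 CPM in 4T1 cells and 36.4 ± 3.41 CPM in distal epithelium (1.84 ± 0.15) and the mitochondrial malic enzyme Me2 at 257 ± 13.7 CPM in 4T1 cells and 29.2 ± 2.93 CPM in distal epithelium (3.13 ± 0.12), while H6pd, the same step in the endoplasmic reticulum, measured 16.4 ± 2.05 CPM in 4T1 cells and 170.4 ± 19.7 CPM in distal epithelium (-3.38 ± 0.14).

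Mitochondrial genes of the nucleus and of the mitochondrion went opposite ways. In the TCA cycle, 19 were higher, 2 were lower and 5 were not called of 26 (5 lower on rescaled TPM), with Idh3a at 443 ± 34.7 CPM in 4T1 cells and 98.8 ± 4.24 CPM in distal epithelium (2.17 ± 0.11) and Mdh2 at 1142 ± 29.3 CPM in 4T1 cells and 299 ± 18.2 CPM in distal epithelium (1.93 ± 0.11), and both mitochondrial pyruvate carriers, Mpc1 (-0.93 ± 0.12) and Mpc2 (-0.55 ± 0.13), were the lower genes. On TPM Mpc2 stood at 0.05. Of 45 nuclear genes of the respiratory chain, 36 were higher, 4 were lower and 5 were not called, with a median of 0.75. Atp5b of ATP synthase measured 1075, 1101 and 1107 CPM in cultured 4T1 cells, against 297, 297 and 366 CPM in distal epithelium, a log2 fold change of 1.77 ± 0.12 (SE, adjusted p = 1.28e-07). Of 13 mitochondrially encoded genes, 1 was higher, 9 were lower and 3 were not called, with a median of -1.15. mt-Co1, a subunit of complex IV, measured 506, 385 and 401 CPM in cultured 4T1 cells, against 1752, 1858 and 1565 CPM in distal epithelium, a log2 fold change of -2.003 ± 0.14 (SE, adjusted p = 1.53e-07), and mt-Nd1 was the gene higher (0.40 ± 0.12, and 0.19 with no call under upper-quartile scaling). The share of counts from the mitochondrial genome was 0.733% in 4T1 cells and 1.18% in distal epithelium. The lower nuclear members included Cox4i2 (-6.46 ± 0.63) and Cox7a1 (-3.47 ± 0.41), isoforms of lung, vessel and muscle.

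Serine and nucleotide synthesis rose strongly. Phgdh, the first enzyme of serine synthesis, measured 612, 626 and 624 CPM in cultured 4T1 cells, against 11.2, 11.8 and 18.3 CPM in distal epithelium, a log2 fold change of 5.50 ± 0.20 (SE, adjusted p = 9.04e-10). Psat1, the next enzyme, measured 444, 355 and 415 CPM in cultured 4T1 cells, against 19.6, 16.1 and 19.8 CPM in distal epithelium, a log2 fold change of 4.45 ± 0.14 (SE, adjusted p = 4.95e-10), and Shmt2, which passes serine carbon to folate in mitochondria, measured 363, 359 and 341 CPM in cultured 4T1 cells, against 23.3, 22.9 and 24.5 CPM in distal epithelium, a log2 fold change of 3.91 ± 0.11 (SE, adjusted p = 2.13e-10). The pathway's later genes Psph (2.48 ± 0.12), Mthfd2 (3.80 ± 0.17) and Mthfd1l (4.15 ± 0.17) followed, and over 23 genes 15 were higher, 7 were lower and 1 was not called with a median of 1.21. The 7 lower genes included Aldh1l1 (at least 821-fold lower), Mat1a (498-fold (95% counting interval 137 to 4119.7) lower count), Cbs and Amt. Of 29 nucleotide synthesis genes, 25 were higher, 1 was lower and 3 were not called, beside 34.7% of all genes higher, with a median of 2.57. Rrm2, the ribonucleotide reductase subunit of dividing cells, measured 1008, 1140.2 and 1010.1 CPM in cultured 4T1 cells, against 34.5, 33.8 and 46.9 CPM in distal epithelium, a log2 fold change of 4.78 ± 0.16 (SE, adjusted p = 7.31e-10), and Cad, which begins pyrimidine synthesis, measured 185, 186 and 159.9 CPM in cultured 4T1 cells, against 11.1, 14.9 and 11.96 CPM in distal epithelium, a log2 fold change of 3.81 ± 0.14 (SE, adjusted p = 1.22e-09). Adssl1, the muscle form of adenylosuccinate synthase, was the lower gene (-4.30 ± 0.21).

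Amino acid supply followed in part. Of 31 genes tested, 19 were higher, 8 were lower and 4 were not called, with a median of 0.79 and a mean of -0.01. The transporter Slc7a5 measured 262, 255 and 206 CPM in cultured 4T1 cells, against 13.97, 13.9 and 11.4 CPM in distal epithelium, a log2 fold change of 4.20 ± 0.14 (SE, adjusted p = 7.40e-10), asparagine synthetase Asns measured 289.9 ± 30.6 CPM in 4T1 cells and 25.1 ± 4.46 CPM in distal epithelium (3.53 ± 0.15) and ornithine decarboxylase Odc1, which starts polyamine synthesis, 209 ± 27.0 CPM in 4T1 cells and 18.5 ± 1.93 CPM in distal epithelium (3.50 ± 0.14). The glutamine transporter Slc1a5 was not called (-0.25 ± 0.15, adjusted p = 0.148). Slc6a14, a broad transporter, was at least 1887-fold lower. The cystine transporter Slc7a11 was not called: its 4T1 libraries spread (11.3, 5.33 and 2.58 CPM, against 3.32, 4.31 and 4.30 CPM in distal epithelium).

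**Figure D5:**
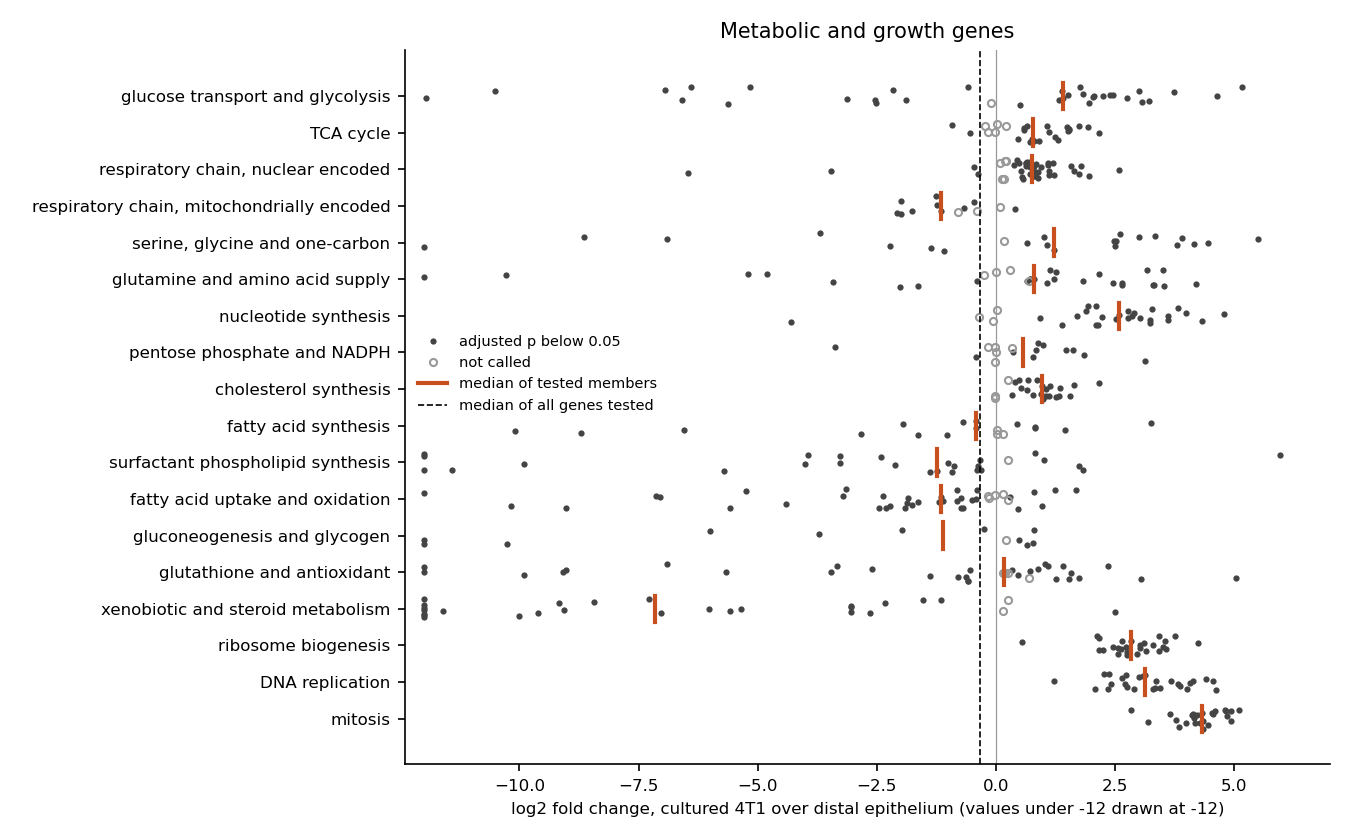
Log2 fold change of 4T1 cells over distal epithelium for each tested gene of 18 metabolic and growth lists, with values under -12 drawn at -12. Filled points passed the test, open points did not, bars are list medians and the dashed line is the median of all genes, -0.33. Mitosis, DNA replication, ribosome biogenesis and nucleotide synthesis lie wholly or almost wholly to the right, and xenobiotic metabolism lies to the left.

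Lipid synthesis was divided between sterols and surfactant phospholipid. Of 24 cholesterol synthesis genes, 21 were higher, 0 were lower and 3 were not called, with a median of 0.96. Sqle, squalene epoxidase, measured 543, 467 and 480.3 CPM in cultured 4T1 cells, against 194, 147 and 137 CPM in distal epithelium, a log2 fold change of 1.64 ± 0.14 (SE, adjusted p = 9.94e-07), and Cyp51, a sterol demethylase, was higher (1.56 ± 0.14). Fatty acid synthesis genes were mixed (5 higher, 10 lower and 3 not called of 18). Fasn, fatty acid synthase, measured 626, 607 and 585 CPM in cultured 4T1 cells, against 663, 529 and 604 CPM in distal epithelium, with a log2 fold change of 0.02 ± 0.12 (adjusted p = 0.893). The groups overlapped, and Fasn stood at -0.97 on TPM rescaled without the 10 most abundant distal genes, an alternative chosen after seeing the data.

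The desaturase that makes oleate differed by isoform. Scd1 measured 83.5, 66.6 and 64.9 CPM in cultured 4T1 cells, against 8450.1, 5569.9 and 6010.4 CPM in distal epithelium, a log2 fold change of -6.54 ± 0.23 (SE, adjusted p = 7.34e-10). Scd2 measured 986, 802 and 753 CPM in cultured 4T1 cells, against 348, 281 and 307 CPM in distal epithelium, a log2 fold change of 1.44 ± 0.14 (SE, adjusted p = 1.90e-06). Scd1 was 8.73% ± 0.152 of the summed TPM of both in 4T1 cells and 96.0% ± 0.455 in distal epithelium, so the leading isoform differed. Elovl6 was higher (3.24 ± 0.14) and Elovl1 lower (-2.83 ± 0.15). Of 27 genes of phospholipid and lipid storage, 5 were higher, 21 were lower and 1 was not called, beside 47.8% of all genes lower, with a median of -1.23. Pcyt1a, the main enzyme setting phosphatidylcholine synthesis, measured 35.2, 35.1 and 31.5 CPM in cultured 4T1 cells, against 65.9, 71.1 and 68.0 CPM in distal epithelium, a log2 fold change of -1.01 ± 0.10 (SE, adjusted p = 3.77e-06), and its relative Pcyt1b measured 63.3, 91.3 and 79.4 CPM in cultured 4T1 cells, against 1.34, 1.31 and 1.08 CPM in distal epithelium, a log2 fold change of 5.96 ± 0.20 (SE, adjusted p = 6.49e-10). The 2 forms therefore moved in opposite directions. The flippase Atp8a1 fell by 5.71 on the log2 scale and Lpl, lipoprotein lipase, was at least 1155-fold lower.

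Most genes of fatty acid uptake and oxidation were lower, with 6 higher, 30 lower and 5 not called of 41 (3 higher on rescaled TPM) and a median of -1.15. Cd36, the uptake receptor, had 0 counts in all 3 libraries in cultured 4T1 cells, against 879, 710.1 and 653 CPM in distal epithelium. Cpt1a, which admits fatty acids to mitochondria, measured 11.2, 9.88 and 7.38 CPM in cultured 4T1 cells, against 53.1, 53.4 and 50.9 CPM in distal epithelium, a log2 fold change of -2.46 ± 0.16 (SE, adjusted p = 6.58e-08), and the coactivator Ppargc1a had a 177-fold (95% counting interval 48.3 to 1468) lower count. The beta-oxidation enzymes Hadhb (0.80 ± 0.13) and Acads (1.24 ± 0.12) were higher all the same. Of 28 genes of xenobiotic and steroid metabolism, 1 was higher, 25 were lower and 2 were not called, with a median of -7.15, or -6.21 with members at 0 counts set at their bound. Fmo2, the lung flavin monooxygenase, was at least 12142-fold lower, Ces1d, a carboxylesterase, at least 11643-fold lower and Cyp2b10 at least 2837-fold lower, and Cyp1b1 was the gene higher, at 46.6, 71.5 and 68.2 CPM in 4T1 libraries and 12.4, 9.61 and 10.95 CPM in distal libraries (2.50 ± 0.18).

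Antioxidant genes differed in both directions. Of 34 tested, 14 were higher, 16 were lower and 4 were not called, with a median of 0.17, -0.04 with upper-quartile scaling, and a mean of -1.71. The extracellular enzymes Gpx3 and Sod3 were lower: Gpx3 measured 0.214, 0.345 and 0.282 CPM in cultured 4T1 cells, against 3686, 4675 and 3089.7 CPM in distal epithelium, a log2 fold change of -13.67 ± 0.29 (SE, adjusted p = 4.96e-11), and Sod3 measured 1.32, 1.004 and 1.49 CPM in cultured 4T1 cells, against 1169, 1367 and 1122 CPM in distal epithelium, a log2 fold change of -9.91 ± 0.20 (SE, adjusted p = 4.50e-11). Nqo1, a quinone reductase, was higher at 17.0 ± 2.01 CPM in 4T1 cells and 3.34 ± 0.8304 CPM in distal epithelium (2.34 ± 0.21), as were Gclm at 83.3 ± 7.67 CPM in 4T1 cells and 28.9 ± 4.59 CPM in distal epithelium (1.53 ± 0.14) and Txnrd1 at 79.0 ± 4.52 CPM in 4T1 cells and 36.9 ± 1.93 CPM in distal epithelium (1.10 ± 0.10). Gclc, the catalytic partner of Gclm, was lower (-3.33 ± 0.29). Sod1 (0.19 ± 0.12, adjusted p = 0.16) and Gpx4 (0.14 ± 0.12, adjusted p = 0.28) were not called.

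Genes of cell division and growth were higher. All 27 DNA replication genes, all 25 mitosis genes and all 27 ribosome biogenesis genes were called higher, beside 34.7% of all genes, with medians of 3.13, 4.31 and 2.82. Mki67, the proliferation antigen, measured 211, 206 and 188 CPM in cultured 4T1 cells, against 16.8, 19.1 and 30.9 CPM in distal epithelium, a log2 fold change of 3.18 ± 0.20 (SE, adjusted p = 6.51e-08). Plk1, a mitotic kinase, measured 298, 316 and 263 CPM in cultured 4T1 cells, against 5.41, 8.43 and 11.9 CPM in distal epithelium, a log2 fold change of 5.10 ± 0.24 (SE, adjusted p = 5.97e-09), and nucleolin, Ncl, measured 2444, 2788 and 2191 CPM in cultured 4T1 cells, against 167, 170.1 and 215 CPM in distal epithelium, a log2 fold change of 3.75 ± 0.16 (SE, adjusted p = 3.01e-09). The cytosolic ribosomal proteins rose as well, 77 of 77 tested, with a median of 1.92, but many have near-identical pseudogenes and the same limit holds for them. Top2a, a topoisomerase of dividing cells, measured 545 ± 63.8 CPM in 4T1 cells and 30.8 ± 10.8 CPM in distal epithelium, so its distal level was not 0.

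Cell cycle inhibitors and p53 genes were mixed, with 9 higher, 13 lower and 3 not called of 25 and a median of -0.54. That median was 0.04 on TPM, against 0.31 for all genes. Trp53, the gene for p53, measured 18.0, 25.4 and 20.7 CPM in cultured 4T1 cells, against 22.6, 19.7 and 26.1 CPM in distal epithelium, with a log2 fold change of -0.09 ± 0.16 (adjusted p = 0.622), and the groups overlapped. It was 0.40 on TPM. Cdkn1a, the p53 target p21, measured 13.1, 13.0 and 13.6 CPM in cultured 4T1 cells, against 71.5, 79.1 and 92.3 CPM in distal epithelium, a log2 fold change of -2.62 ± 0.13 (SE, adjusted p = 8.15e-09). Pmaip1 was at least 1192-fold lower, Cdkn1c at least 850.4-fold lower and Cdkn2b at least 528-fold lower. Other genes linked to p53 were higher, with Perp at 2.38 ± 0.13, Bax at 1.26 ± 0.12 and Aen at 1.80 ± 0.11. Cdkn2a had 0 counts in 4T1 cells and 5 counts in distal epithelium in all, too few for a comparison.

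Antigen presentation was lower throughout. All 16 class I genes tested and all 12 class II genes tested were lower in 4T1 cells, beside 47.8% of all genes, with medians of -2.34 and -10.95. H2-D1, a class I heavy chain, measured 757, 1419.7 and 766 CPM in cultured 4T1 cells, against 3522, 3469 and 4039 CPM in distal epithelium, a log2 fold change of -1.91 ± 0.23 (SE, adjusted p = 1.33e-05), and the peptide transporter Tap1 measured 4.78, 10.7 and 2.99 CPM in cultured 4T1 cells, against 229.9, 258 and 263 CPM in distal epithelium, a log2 fold change of -5.31 ± 0.36 (SE, adjusted p = 1.22e-07). 4T1 replicate B was the highest 4T1 library for both genes, though it did not reach the lowest distal library. Ciita, the class II coactivator, measured 0, 0.0314 and 0.404 CPM in cultured 4T1 cells, against 82.7, 74.0 and 89.0 CPM in distal epithelium, a log2 fold change of -9.15 ± 0.40 (SE, adjusted p = 3.76e-09), and H2-Ab1 measured 0.0801 ± 0.0484 CPM in 4T1 cells and 1955 ± 231 CPM in distal epithelium (-14.56 ± 0.27). AT2 cells express class II, and so do macrophages and B cells, whose markers were present in distal libraries, and the share of each in the distal level was not tested. H2 genes are close in sequence, which makes single members uncertain.

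Differences were also described by position along the genome. Median log2 fold changes per chromosome ran from -0.67 on chromosome 6 to 0.13 on chromosome 19, a range of 0.801. Of 13903 protein-coding genes considered, 1471 had at least 1 CPM in every distal library and at most 1 count in every 4T1 library, and 15 showed the reverse. The 1471 genes formed 63 runs of at least 3 neighbours, and the 15 formed 0. Neighbours were adjacent among the coding genes considered, at a mean of at least 1 CPM in either group, so runs can skip other genes. A larger set forms more runs without any order along the genome, and whether 63 exceeds that was not tested. The longest run, 11 genes on chromosome 19 (11249675 to 11763447) from Ms4a1 to Gif, is mostly the Ms4a family of leukocyte membrane genes. The next, 7 genes on chromosome 3 (81957090 to 82903973) from Tdo2 to Lrat, held Lrat, which stores retinol, at 177 ± 8.46 CPM in distal epithelium and 0 counts in 4T1 cells. The Hox B run from Hoxb7 to Hoxb2 spans 96286623 to 96354012 on chromosome 11.

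On chromosome 4, neighbouring genes differed in opposite directions. Mtap (chromosome 4, 89137122 to 89181081), which recycles methylthioadenosine in polyamine synthesis, measured 553, 579 and 519.6 CPM in cultured 4T1 cells, against 22.6, 29.0 and 31.3 CPM in distal epithelium, a log2 fold change of 4.32 ± 0.15 (SE, adjusted p = 7.27e-10). Nearby, Cdkn2b (chromosome 4, 89306299 to 89311039), which encodes the inhibitor p15, had 0 counts in all 3 libraries in cultured 4T1 cells, against 18.5, 20.1 and 20.7 CPM in distal epithelium. A gene high in 4T1 cells and a gene absent from them thus lie close together, with Cdkn2a between them. Nearer to the start of the chromosome, a run of 4 genes, Bnc2, Cntln, Sh3gl2 and Adamtsl1 (84275095 to 86428385), held 1 count in all in 4T1 cells, with 24.1 ± 3.90 CPM of Adamtsl1 and 10.7 ± 1.35 CPM of Cntln in distal epithelium. On the X chromosome, Xist, the RNA of the inactive X, had 0 counts in all 3 libraries in cultured 4T1 cells, against 128, 161 and 167 CPM in distal epithelium, and its antisense partner Tsix had a 2190.4-fold (95% counting interval 392 to 86583) lower count. No source used here gives the strand setting, so reads of Xist and Tsix cannot be told apart.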

How the data were processed

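RNA was prepared from RLT lysates with the RNeasy Micro kit and made into libraries with KAPA Hyper Prep, and sequenced on an Illumina HiSeq with 75 bp reads at a planned depth of 30000000, per the labels' protocols. The deposited tables hold estimated (expected) counts and TPM per gene, and RSEM, DESeq2 and GRCm38 are named in the submitters' processing notes without role or version. No source used here names the aligner or the strand setting. RSEM shares reads between near-identical copies, so some expected counts were not whole as deposited by the authors. Over all 54838 genes, those at 0 included, this held for 11.8 to 12.6% in 4T1 libraries and 13.2 to 13.4% in distal libraries. The share among genes with counts is therefore larger. Expected counts were rounded. Genes were filtered with edgeR's filterByExpr, scaled by TMM and tested between 3 and 3 libraries with the quasi-likelihood test of edgeR 4.0.16 (R 4.3.3) with Benjamini-Hochberg adjustment at 0.05. DESeq2 1.42.0, limma 3.58.1 on log2(TPM + 1) and other scalings and filters were alternatives. The fit was also run on simulated counts with 200 genes changed, far fewer than were called here. That run therefore cannot show whether the scaling holds where most genes differ. Gene symbols and positions came from the GRCm38.p6 annotation tables, which matched 54809 of 54838 gene identifiers. Intervals and the bounds from 3 counts over a whole group (0.0375 CPM in 4T1 cells and 0.0633 CPM in distal epithelium) cover counting error only. In a single library, 3 counts are 0.0941 to 0.128 CPM for 4T1 cells and 0.175 to 0.202 CPM for distal epithelium. Replicates of a group differed by more than sampling noise, with a chi-square per degree of freedom of 12.3 to 26.8 in 4T1 pairs and 16.8 to 19.3 in distal pairs. The text names members of 47 lists of 1061 genes, 980 of them tested, plus the 10 largest rises and falls and the 10 highest TPM of each group. The comparison, its members and these lists were chosen with earlier results of these data known. Beyond the 6 largest changes of each list and 3 in the opposite direction, all lung and Hox factors and a fixed set of genes, list members and the genes of chromosome runs were named after their values were seen. Some genes of the rule are not reported here. The other 9 libraries of the series entered only an alternative fit.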

Additional observations from a re-analysis of the deposited data

How the results depend on the processing

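Over 15 settings and 454 named genes, 6704 values kept their side of the threshold and, where called, their direction, 45 lost the call, 41 gained one and 12 changed sign. On log2(TPM + 1) with limma the sign changed for Aqp5 (0.27), Cdh1 (0.50), Cxcl16 (0.35), Epcam (0.10), Fabp5 (0.56), Me1 (0.098), Mpc2 (0.053), Ndufa1 (0.14), Ndufa13 (0.048), Tcf4 (0.18) and Trp53 (0.40), and on TPM rescaled without the 10 most abundant distal genes for Fasn (-0.97). On TPM 5235 genes were lower, 2253 of them by at least 4-fold, and on rescaled TPM 961 were at least 4-fold higher. The range of chromosome medians, 0.801, was 1.11 without a filter, 1.11 with DESeq2, 0.618 on TPM, 0.641 on rescaled TPM and 0.955 with all 15 libraries in the fit, and the cause was not tested. Without single replicates it was 0.803 to 0.909, with 13667 to 14109 genes called, 5598 to 5808 higher, 8041 to 8301 lower, 1729 to 1850 at least 4-fold higher and 5135 to 5439 at least 4-fold lower. Same-numbered deviations correlated at 0.0587, 0.0436 and 0.0965, and those of different numbers at -0.159 to 0.126. These ranges overlap, so the check cannot decide whether replicate numbers pair the samples. The fit with a replicate block called 13696 genes, 5798 higher and 7898 lower. A test against a 4-fold change called 1300 genes higher and 4409 lower. Depth limits genes near 0 in 4T1 cells to the bounds given, and 3 replicates limit genes such as Epcam and Nr1d2, whose groups lie close.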

Other observations

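Secreted signals did not share a direction. Of 46 cytokine and growth factor genes tested, 18 were higher, 23 were lower and 5 were not called, beside 34.7% of all genes higher and 47.8% lower. Their median was -0.53, and it was 0.07 on TPM, against 0.31 for all genes. Csf3, which encodes the granulocyte growth factor G-CSF, measured 70.8, 66.6 and 44.4 CPM in cultured 4T1 cells, against 4.42, 1.57 and 2.55 CPM in distal epithelium, a log2 fold change of 4.39 ± 0.30 (SE, adjusted p = 1.30e-07). Wnt7b, a Wnt ligand, measured 125, 121 and 117 CPM in cultured 4T1 cells, against 3.61, 2.61 and 4.50 CPM in distal epithelium, a log2 fold change of 5.08 ± 0.17 (SE, adjusted p = 6.18e-10). Each 4T1 library was above each distal library for both, and Wnt10a (5.00 ± 0.35), Tslp (3.68 ± 0.21), Inhba (3.396 ± 0.21), Lif (2.14 ± 0.21) and Csf1 (1.57 ± 0.15) were higher too. Il33, an alarmin of alveolar epithelium, measured 0.769, 1.004 and 0.363 CPM in cultured 4T1 cells, against 927, 472 and 633 CPM in distal epithelium, a log2 fold change of -9.84 ± 0.37 (SE, adjusted p = 1.20e-09). Vegfa, which alveolar epithelium secretes toward capillaries, measured 3.50, 2.29 and 3.15 CPM in cultured 4T1 cells, against 50.4, 56.8 and 65.1 CPM in distal epithelium, a log2 fold change of -4.28 ± 0.18 (SE, adjusted p = 3.26e-09), and Bmp4 had a 10526-fold (95% counting interval 1889 to 415831) lower count. Fibroblast markers move with Hgf (3233-fold (95% counting interval 579.6 to 127773) lower count) and leukocyte markers with Il1b (-8.65 ± 0.54), and their part was not tested. Cxcl16 (-0.10 ± 0.10, adjusted p = 0.411) and Tgfb1 (0.29 ± 0.21, adjusted p = 0.218) were not called.

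Matrix and protease genes were more often higher, with 21 higher, 15 lower and 3 not called of 39 tested, a median of 0.76 and a mean of -0.55. Plau, the urokinase protease, measured 203, 212 and 152 CPM in cultured 4T1 cells, against 8.20, 11.8 and 14.5 CPM in distal epithelium, a log2 fold change of 4.04 ± 0.21 (SE, adjusted p = 1.31e-08), and its receptor Plaur measured 189.7, 239.7 and 185 CPM in cultured 4T1 cells, against 26.4, 18.0 and 26.4 CPM in distal epithelium, a log2 fold change of 3.11 ± 0.17 (SE, adjusted p = 2.11e-08). The ligand and the receptor were thus both higher in every 4T1 library. The integrin subunits Itga2 (4.13 ± 0.29), Itga3 (3.27 ± 0.13) and Itga6 (2.68 ± 0.22) were higher, and Itga8 (-6.21 ± 0.31) and Itgb6 (-2.38 ± 0.15) were lower. Npnt, a ligand of the integrin that holds Itga8, was lower as well (-5.08 ± 0.17).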
